A study of Mus musculus with 3 samples.

Results

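The cells described here are the megakaryocyte lineage progenitors of mouse bone marrow, chosen by 4 limits on their transcripts. A cell was taken when it held at least 3 unique molecular identifiers (UMIs, counts of single captured RNA molecules) of Pf4, at least 2 UMIs of Itga2b, Gp1bb, Gp9 and Cavin2 together and at most 4 UMIs of the erythroid genes Klf1, Car1 and Mfsd2b together. Its UMIs of the neutrophil granule genes Camp and Ngp also had to stay below 20000 per 1000000 UMIs of the cell. These limits, called the megakaryocyte gate below, took 229 of 26415 kept cells, with 62 from an unchallenged library, 90 from a library challenged once and 77 from a rechallenged library. The libraries were made from Kit-enriched bone marrow of C57BL/6 mice in steady state, after 1 challenge with E. coli (labelled 24 h) and after a repeated challenge with E. coli (labelled 48 h). Kit is the receptor for stem cell factor, so the enrichment sets which cells could be seen. The source label names bone marrow neutrophils while the protocol label names the Kit enrichment, and neither the animals per library nor the moment from which the hours count is given. There was 1 library in each group and no replicate, so every difference is between single libraries, and the number of challenges and the hours cannot be told apart.

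Megakaryocytes make platelets. They arise from stem and progenitor cells. Their genes are driven by transcription factors of the GATA, ETS and RUNX families, with Gata1 and Fli1 among them, and by Nfe2. Along the way they take on the fibrinogen receptor (Itga2b with Itgb3), the von Willebrand factor receptor (Gp1ba, Gp1bb, Gp9 and Gp5) and alpha granules, the stores that hold platelet factor 4 (Pf4) and von Willebrand factor (Vwf).

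The bases just before the start of 3 platelet genes are shown because these genes define or mark the gate and hold the ETS or GATA letters that the family's factors are known to bind. They come from RefSeq on GRCm38.p6, are written 5′ to 3′ on the strand of the gene and end at the base before the start. Capitals mark the ETS letters, AGGAAG, searched on both strands. They also mark the GATA letters, which were searched on both strands as AGATAA and, in the other form of the same motif that is common in blood cell genes, as TGATAA. No match in these windows overlapped another.
Pf4 (chr5:90772185-90772434, plus strand): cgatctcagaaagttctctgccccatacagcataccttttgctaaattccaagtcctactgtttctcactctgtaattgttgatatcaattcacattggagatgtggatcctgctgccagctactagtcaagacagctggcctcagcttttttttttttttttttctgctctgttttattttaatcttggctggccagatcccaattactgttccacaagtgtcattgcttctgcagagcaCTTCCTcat
Gp9 (chr6:87777820-87778069, plus strand): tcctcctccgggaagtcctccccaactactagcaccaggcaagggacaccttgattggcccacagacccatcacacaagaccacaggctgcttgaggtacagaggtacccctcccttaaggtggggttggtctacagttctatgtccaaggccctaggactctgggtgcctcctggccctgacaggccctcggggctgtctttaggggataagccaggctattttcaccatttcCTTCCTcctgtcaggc
Gp5 (chr16:30310782-30311031, minus strand): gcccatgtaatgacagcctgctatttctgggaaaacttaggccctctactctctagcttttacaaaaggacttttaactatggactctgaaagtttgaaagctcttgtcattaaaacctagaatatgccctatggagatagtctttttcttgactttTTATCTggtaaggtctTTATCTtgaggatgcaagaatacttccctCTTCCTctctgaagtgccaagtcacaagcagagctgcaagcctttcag
The ETS letters began 9 bases before the start of Pf4, 16 bases before that of Gp9 and 48 bases before that of Gp5. Gp5 also held the GATA letters at 93 and 77 bases before its start. Among 32851 RefSeq windows of 250 bases, 29.5% held the ETS letters and 16.6% the GATA letters, so a match alone is common. Of the 32 windows of platelet surface and alpha granule genes in the table, 16 held the ETS letters and 9 the GATA letters. A match is a description of the letters and not of binding.

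The gate made up 0.672% of the kept unchallenged cells (exact Clopper-Pearson 95% interval 0.516 to 0.861), 1.04% of the cells challenged once (0.837 to 1.28) and 0.901% of the rechallenged cells (0.712 to 1.13). The intervals overlapped, and they cover counting error only. The share also moved with the neutrophils in the same libraries. Outside cells rich in Camp and Ngp the shares were 1.31%, 1.23% and 1.15%, in the same order. Against the early erythroid cells, a sister lineage, there were 9.6 gate cells per 100 in the unchallenged library, 9.85 after 1 challenge and 24.1 after rechallenge. The early erythroid gate itself held 646, 914 and 319 cells in the same order. Against basophil or mast cells the numbers were 26.8, 26.2 and 24.6 per 100.

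The edges of the gate were populated. Among gate cells 10 held exactly 3 Pf4 UMIs, and 19 cells at 2 Pf4 UMIs met every other limit. A further 62 cells failed on the 4 platelet surface and caveolae genes alone, with median Pf4 of 4, 5 and 6.5 UMIs in the 3 libraries. Cells with 5 or more erythroid UMIs that met the other limits numbered 16, 8 and 3, and in the unchallenged library these held a median of 295 Pf4 UMIs. They carry both platelet and erythroid transcripts and lie outside the gate by its rule. The gate cells of different libraries shared no barcode, while the libraries as a whole shared 103 to 125.

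Gate cells were deep in the unchallenged library, with a median of 16739 UMIs, and shallower after 1 challenge (14394) and after rechallenge (9644). All kept cells had median depths of 11196, 13477 and 10500 UMIs. Mitochondrial transcripts made up a median of 2.42%, 2.64% and 4.55% of the UMIs of gate cells. Ribosomal protein transcripts made up 37.0%, 40.2% and 43.9% of gate UMIs and 27.0%, 35.0% and 38.0% in the other kept cells. Levels below are UMIs of a gene per 1000000 UMIs summed over the gate cells of a library (CPM), with exact Poisson 95% intervals where they are given.

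Platelet genes that the rule did not use were present in the gate and low elsewhere. Vwf, the adhesion protein stored in alpha granules, had at least 1 UMI in 56.5% of unchallenged gate cells, 45.6% after 1 challenge and 64.9% after rechallenge. In immature neutrophils, a class that should lack it, 0.402%, 0.149% and 0.271% of cells held it, and their median cell had 10711, 9467 and 9508 UMIs. Early erythroid cells were deeper, at 27072, 24050 and 15298 UMIs, and held Vwf in 8.67%, 6.67% and 3.45%. Thus the share of Vwf-positive cells in the gate was far above both.
F2r, a thrombin receptor, stood at 232.0, 178.9 and 194.6 CPM in the gate and between 10.8 and 14.1 CPM in stem-like cells. The early erythroid gate took only cells without a Pf4 UMI and the stem-like gate cells with at most 2. The contrasts with these cells are therefore partly set by the gates. Gata1 went the other way between the sister lineages, with 75.8, 65.9 and 62.2 CPM in the gate and 130, 122 and 102 CPM in early erythroid cells.

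Some genes of late megakaryocytes had few transcripts in the gate, and Tubb1, P2ry12 and Gp1ba were picked after their values were seen. Tubb1, the platelet beta tubulin, had 0.935 CPM in the unchallenged library and no UMI in the others. P2ry12, the ADP receptor of platelets, was at 0 in all 3 libraries. Gp1ba was at 10.3, 6.74 and 8.06 CPM, and Ppbp at 40.2, 25.5 and 32.2 CPM with 82% of its rechallenged UMIs in 1 cell. Other platelet surface genes were more abundant. Treml1 and Gp5 stood at 46.4 and 50.7 CPM in gate cells with Pf4 under 1000 CPM. In those with Pf4 at 4000 CPM and over they stood at 121 and 104 CPM. No stage of the lineage is therefore read from the low genes.

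Markers of basophils, eosinophils and monocytes were low in the gate. Of 11 basophil and mast cell markers 5, 3 and 4 were at 0, with summed levels of 27.1, 58.4 and 69.1 CPM, against 217 to 451 CPM in other kept cells. The 5 eosinophil markers summed to 4.7, 0 and 9.2 CPM and the 12 monocyte and macrophage markers to 31.8, 32.2 and 61.0 CPM. Csf1r, the monocyte growth factor receptor, had no UMI in the unchallenged gate. The 9 T and NK cell markers summed to 297, 383 and 509 CPM in the gate and 387, 457 and 719 CPM elsewhere, and nearly all of it was Nkg7, a granule protein gene, at 292.8, 375.1 and 465.3 CPM, while the T cell receptor gene Cd3e had no UMI in any of the 3 gates. The 6 endothelial markers summed to 61.7, 59.9 and 49.5 CPM, against 41.3, 61.5 and 33.2 CPM elsewhere, with Cdh5 at 0 in the gate. Of the 21 erythroid markers at least 5 UMIs were held by 60, 78 and 52 gate cells. Their summed levels were 713, 687 and 549 CPM in the gate and 9818, 7823 and 7416 CPM in early erythroid cells. Klf1, Car1 and Mfsd2b are among these markers. The rule limited them in the gate and the early erythroid gate required them, so this contrast follows in part from the rules. The 15 neutrophil granule markers were higher, at 9797, 3518 and 6278 CPM in the gate against 205815, 62179 and 94390 CPM in the other kept cells. Camp stood at 1224, 173 and 325.9 CPM in the gate, and it was limited there by the rule.

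Of the gate cells, 4 challenged once and 4 rechallenged carried at least 20 UMIs of Mpo and Elane or at least 20000 CPM of neutrophil granule transcripts, and none in the unchallenged library did. They held 6.77% and 11.2% of the gate UMIs of their libraries, and 5 of the 8 were doublet calls of Scrublet. Without them the 15 neutrophil granule markers summed to 9797, 2375 and 2768 CPM. Elane, the primary granule elastase, stood at 148, 311 and 495 CPM with them and at 148, 105 and 71.3 CPM without them. Mpo, myeloperoxidase, stood at 106, 227 and 349 CPM with them and at 106, 81.1 and 93.4 CPM without. The order of the libraries for both genes thus turned on these 8 cells.

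Pf4 varied widely between gate cells. Summed over cells it stood at 7729 CPM in the unchallenged library, 3883 after 1 challenge and 7696 after rechallenge, and since the rule used Pf4 these levels are a description. The median cell had 3921, 2583 and 4632 CPM of Pf4. A single cell gave 13% of the Pf4 UMIs of the unchallenged gate and another 22% of those of the rechallenged gate. Pf4 was thus lower in the library challenged once both in the sum and in the median cell.

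**Figure D1:**
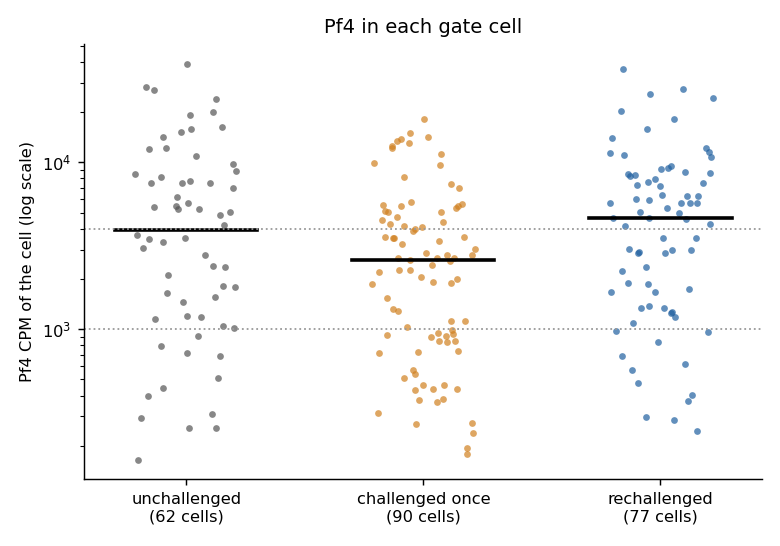
Pf4 level of each gate cell in CPM of that cell, on a log axis, 1 point a cell, for the unchallenged (62 cells), challenged once (90 cells) and rechallenged (77 cells) libraries. Black lines are medians (3921, 2583 and 4632), and dotted lines stand at 1000 and 4000 CPM. The 3 clouds overlap over most of their range.

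Cut at 1000 and 4000 CPM, ranges that are not cell types, the gate held 53 cells with low, 73 with middle and 103 with high Pf4. The high range held 50% of the unchallenged gate cells (37.0 to 63.0), 32.2% of those challenged once (22.8 to 42.9) and 55.8% of those rechallenged (44.1 to 67.2). Since Pf4 chose the ranges, only the other genes describe them. Median depth was 12903, 12219 and 14848 UMIs from low to high over all libraries, but within the unchallenged library it was 13280 UMIs in the low and 20768 in the high range. A share of cells with at least 1 UMI moves with depth, so levels in CPM are given beside the shares of Kit and Vwf.
From low to high Pf4, the stem cell factor receptor Kit was found in 60.4%, 41.1% and 32% of cells. Cd34, a progenitor surface protein, was found in 37.7%, 24.7% and 14.6%. Apoe, an apolipoprotein, stood at 654, 320 and 150 CPM. These 3 genes were lower where Pf4 was higher. For Kit this held within each library, with 97.6 CPM in the low and 38.2 CPM in the high range of the unchallenged gate, 59.7 and 18.5 after 1 challenge and 122.7 and 37.4 after rechallenge.
Genes of platelets went the other way. Vwf stood at 28.7 CPM in the low and 131 CPM in the high range of the unchallenged gate, at 18.2 and 107 after 1 challenge and at 53.7 and 218 after rechallenge. It was found in 24.5%, 50.7% and 73.8% of cells, Itgb3 in 20.8%, 42.5% and 66% and F2rl2, a thrombin receptor, in 18.9%, 52.1% and 73.8%. Rab27b, a small GTPase of granule release, was found in 20.8%, 67.1% and 85.4%, and the protease inhibitor Serpine2 in 15.1%, 43.8% and 78.6%. Ppbp, a platelet chemokine, and Clec1b, the podoplanin receptor, stood at 59.8 and 40.7 CPM in the high range against 1.45 CPM each in the low range. Gata1 was found in 62.3%, 61.6% and 58.3% of cells, so its share differed by less than its counting intervals.

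**Figure D2:**
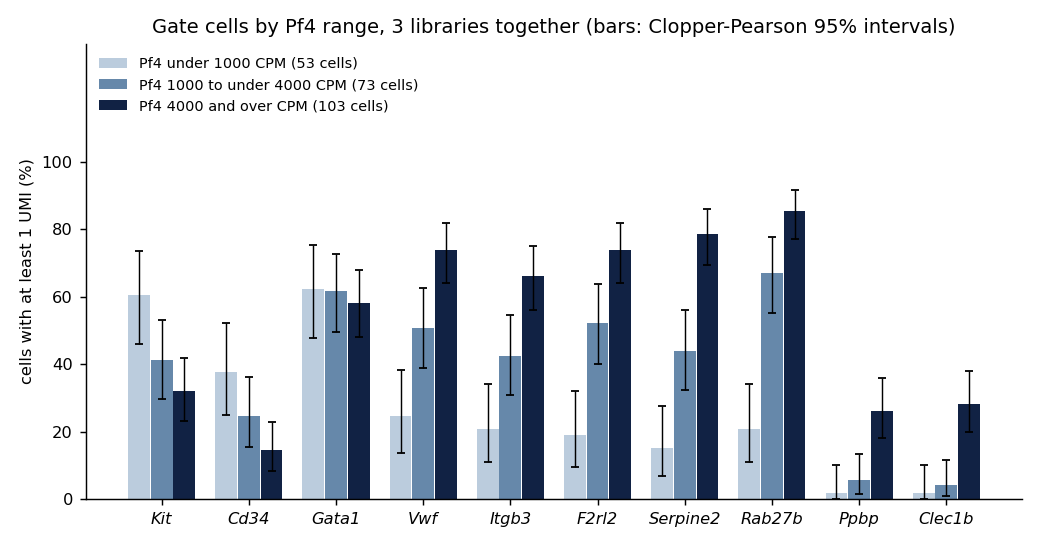
Percent of gate cells with at least 1 UMI of 10 genes, for cells with Pf4 under 1000 (53 cells), from 1000 to under 4000 (73) and at 4000 and over (103) CPM, the 3 libraries together. Error bars are exact Clopper-Pearson 95% intervals. Kit and Cd34 are lower and Vwf, Itgb3, F2rl2, Serpine2 and Rab27b higher in the high range than in the low range.

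Across the 229 gate cells, centred within library, the genes most like Pf4 were Tmsb4x (Pearson r = 0.79), which encodes the actin-binding thymosin beta 4, Rap1b (0.66), a GTPase of integrin activation, Serpine2 (0.58), the tetraspanin Cd9 (0.56) and Rab27b (0.54). Kit had r = -0.31 with Pf4. The cells share libraries and differ in depth, Pf4 itself was used by the gate, and these values are a description. Those most like Itga2b were Serpine2 (0.38), Pf4 (0.38), Tmsb4x (0.37), Cd9 (0.36) and Rab27b (0.30), and those most like Vwf were Pf4 (0.44), Itgb3 (0.39), Serpine2 (0.38), Tmsb4x (0.35) and Plek (0.35).

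Itgb3 and Vwf were highest in the rechallenged library. Itga2b, the alpha chain that pairs with Itgb3 (the gene lies at chr11:102453297-102470122 on the minus strand of GRCm38, by GENCODE M21), stood at 335.8 CPM (302 to 372) in the unchallenged library, 280.0 (252 to 310) after 1 challenge and 453.8 (410 to 501) after rechallenge. It is 1 of the 4 genes of the gate's surface limit, so its level is a description. In shallower cells that limit asks for a higher CPM, and 2, 5 and 11 gate cells held exactly 2 UMIs of those genes. Itgb3, the beta chain, stood at 64.5 (50.2 to 81.7), 50.2 (38.9 to 63.7) and 134.8 (111 to 162) CPM. Vwf (chr6:125546774-125686679, plus strand) stood at 96.3 (78.6 to 117), 71.9 (58.2 to 87.8) and 161.2 (136 to 190) CPM. For Itgb3 and Vwf the rechallenged interval lay above both others, and the counting intervals of the unchallenged library and the one challenged once overlapped.
Rechallenged over unchallenged, Itgb3 was 2.09-fold (1.54 to 2.85) and Vwf 1.67-fold (1.29 to 2.18) higher. Within the cells of high Pf4 alone, Itgb3 stood at 95.6, 69.8 and 193 CPM and Vwf at 131, 107 and 218 CPM, so the order of the libraries was the same there. In the middle range Itgb3 stood at 26.2, 54.0 and 78.4 CPM and Vwf at 59.9, 79.9 and 95.8 CPM, with the unchallenged library lowest. In the low range Itgb3 stood at 11.5, 20.8 and 7.67 CPM, with 1 UMI after rechallenge, and Vwf at 28.7, 18.2 and 53.7 CPM. The full order thus did not hold in every range. Itga6, the laminin-binding integrin chain, stood at 56.1, 64.4 and 112.9 CPM.

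Gp5, Cd9 and Tgfb1 were lower in the rechallenged library than in the unchallenged one. Gp5, of the von Willebrand factor receptor, stood at 100.1 (82.0 to 121), 75.6 (61.6 to 91.9) and 59.9 (44.7 to 78.5) CPM. Cd9 stood at 508.8, 391.6 and 304.1 CPM and the growth factor gene Tgfb1 at 623.0, 478.4 and 298.3 CPM. Rechallenged over unchallenged, the log2 ratio of Gp5 was -0.66, and -0.37 when scaled by the median of all genes, and those of Itgb3 were 0.96 and 1.24. Gp9, Gp1bb and Cavin2 belong to the surface limit, so their levels are a description as well. Gp9 stood at 132.8 (112 to 157), 91.3 (75.9 to 109) and 57.6 (42.7 to 75.9) CPM and was found in 77.4%, 70% and 36.4% of gate cells. Gp1bb stood at 42.1 (30.7 to 56.3), 28.5 (20.1 to 39.1) and 20.7 (12.3 to 32.8) CPM, with intervals that overlapped between neighbouring values.
Timp3, a metalloproteinase inhibitor, stood at 90.7, 35.9 and 70.3 CPM. Cavin2, of the caveolae, stood at 216.1, 187.9 and 149.7 CPM.

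**Figure D3:**
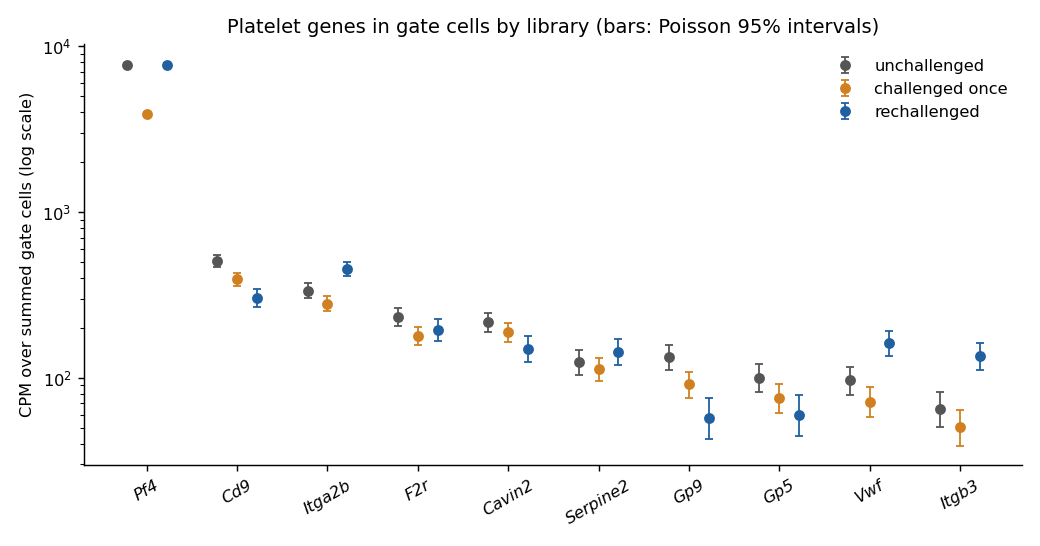
Levels in CPM, on a log axis, of 10 platelet genes summed over gate cells, 1 point a library with its exact Poisson 95% interval. Itgb3 and Vwf are highest in the rechallenged library and Gp9, Cd9 and Cavin2 lowest there, and Pf4, Itga2b, Gp9 and Cavin2 were used by the gate.

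Most transcription factors of the lineage, like most genes, differed little after 1 challenge. Gata2 stood at 164.6, 149.0 and 153.2 CPM, Fli1 at 221.7, 181.9 and 245.3 and Nfe2 at 116.0, 135.5 and 107.1. Gfi1b, a repressor shared with the erythroid lineage, stood at 65.5, 83.1 and 32.2 CPM. Of 19 listed regulators 17 were measured (at least 100 UMIs over both libraries) between the library challenged once and the unchallenged one. None of them differed by 1.5-fold, at a median log2 ratio of 0.02. Of all genes 1.01% were that much higher and 2.03% lower, so none among 17 is near the share of all genes. Rechallenged over challenged once, 1 of 17 was at least 1.5-fold higher (Etv6) and 2 were lower (Gfi1b and Lyl1), where 5.32% of all genes were that much higher and 20.4% lower. Scaled by the median of all genes, 5 were higher and 2 lower. At this scaling the share of all genes past 1.5-fold was not counted, so no excess is read from these counts. The 16 stem cell genes summed to 603, 533 and 532 CPM in the gate, between the 1815, 1494 and 1253 CPM of stem-like cells and the 297, 434 and 286 CPM of all other kept cells. Among them Angpt1, an angiopoietin gene, stood at 142.2, 110.8 and 133.6 CPM, while Flt3 had at most 2.25 CPM, Hlf 14.97, 9.73 and 16.1 CPM, and Cd48, a surface protein that stem cells lack, 98.2, 75.6 and 42.6 CPM. Kit stood at 48.6, 36.7 and 67.95 CPM. The stem-like gate was set on Hlf, Mecom and Procr, so the higher stem cell sum there follows in part from that limit.

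Challenged once over unchallenged, interferon-responsive genes were higher in the gate. Here a ratio was taken on log2 of CPM + 10, and a gene was called at 2-fold. Of 2959 measured genes 10 were called higher (0.338%) and 13 lower (0.439%), and the median of all genes was -0.06. Without the 8 cells with neutrophil transcripts 3 of these genes were still called higher, namely Ifi27l2a, Fosb and Rps12-ps3. Rps12-ps3, at log2 ratios of 1.29 and 1.30 with and without those cells, was named after its values were seen, and its value is uncertain because counting can split reads between a ribosomal pseudogene and near-identical copies. Ifi27l2a, an interferon-induced mitochondrial protein gene, stood at 23.4 (15.1 to 34.5) CPM in the unchallenged library, 119.0 (101.3 to 139) after 1 challenge and 21.9 (13.2 to 34.2) after rechallenge. Its log2 ratio was 1.95 in the gate and 0.46 in the other kept cells. Ifi203, of the DNA-sensing family, stood at 59.9, 121.3 and 36.9 CPM, and its log2 ratio of 0.91 was just short of the call.
Of 40 listed interferon genes 8 were measured, and 3 passed 1.5-fold upward and 0 downward, where 1.01% of all genes passed it upward and 2.03% downward. Their median log2 ratio was 0.43 in the gate and 0.61 in the other kept cells, so they were higher in both. The antigen presentation list, which holds MHC class I genes, peptide transporter genes and immunoproteasome subunits, had a median of 0.27 in the gate and 0.37 elsewhere, with H2-K1 at 816.6 and 1032 CPM and B2m at 2457 and 2852 CPM. Of the 10 measured immediate early genes 4 had ratios above 0 and 6 below, and 3 passed 1.5-fold upward and 0 downward. Their median log2 ratio was -0.12 in the gate and 0.29 in the other kept cells. Among those higher, Fosb stood at 21.5 and 76.4 CPM and Jun at 222.6 and 378.1 CPM.

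Wfdc17, a gene of activated myeloid cells, had no UMI in the unchallenged gate and 109.3 CPM in the gate challenged once, at least 39-fold higher when set against 3 counts in the unchallenged gate. One cell gave 64% of those UMIs, and without the 8 cells with neutrophil transcripts its level was 39.4 CPM. The other kept cells held 22.8 and 224 CPM. Plac8, a lysosomal protein gene of progenitors, stood at 419.0, 949.4 and 793.5 CPM and at 419, 775 and 519 CPM without those 8 cells. Of the 8 largest lower ratios, 7 were the neutrophil genes Camp, Chil3, Lcn2, Ltf, Ngp, S100a8 and S100a9, which were lower in the other kept cells as well.

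In the rechallenged library the whole gate profile was shifted. Rechallenged over unchallenged, 24 of 2330 measured genes were called higher (1.03%) and 110 lower (4.72%), and the median of all genes was -0.29 in the gate and -0.10 for the same genes in the other kept cells. Scaled by that median instead of the total, 64 genes were called higher (2.75%) and 24 lower (1.03%). The balance of higher and lower genes therefore depends on the scaling, and the values that follow are to be read against the median of -0.29.
Hprt, of purine salvage, stood at 213.3 (186 to 243), 174.4 (153 to 198) and 51.8 (37.8 to 69.4) CPM. Pa2g4, a growth-regulated binding protein of ribosome assembly, stood at 364.8, 321.2 and 118.6 CPM. Grpel1, a mitochondrial import factor, stood at 138.4, 132.5 and 42.6 CPM and Ruvbl2, an ATPase of complex assembly, at 115.0, 101.8 and 34.6. Rechallenged over unchallenged, Hprt was 4.11-fold (2.98 to 5.8) and Pa2g4 3.08-fold (2.47 to 3.86) lower, and their scaled log2 ratios were still -1.57 and -1.24. In the other kept cells the unscaled log2 ratios were -0.57 for Hprt and -0.61 for Pa2g4. In cells of high Pf4 alone Hprt stood at 183, 168 and 45.3 CPM.
The ribosome biogenesis list had 8 of 12 measured genes past 1.5-fold downward, and the cytosolic chaperones 7 of 11, with 0 upward in both, where 25.3% of all genes passed it downward and 4.55% upward. Their medians were -0.67 and -0.70. Scaled by the median of all genes, 2 and 1 passed it downward, where 9.14% of all genes did, at medians of -0.36 and -0.39. Npm1, a nucleolar protein, stood at 1822, 1825 and 916.8 CPM, and Hspa8 at 2325, 2239 and 1282 CPM.
Higher after rechallenge were C1galt1, an enzyme of O-glycan synthesis (68.3, 56.9 and 160.1 CPM), the repressor Irf2bp2 (44.9, 45.7 and 124.4 CPM), the kinase Hipk1 (56.1, 81.6 and 141.7 CPM) and Jund (170.2, 226.9 and 431.9 CPM). C1galt1 stayed between 17.5 and 20.4 CPM in the other kept cells, where Jund stood at 92.7, 95.4 and 189 CPM.

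Rechallenged over challenged once, 5 of 8 interferon genes were lower, and 4 of 7 alpha granule genes were higher. Of 2596 measured genes 28 were called higher (1.08%) and 77 lower (2.97%), with a median of -0.21, and scaled by it 60 were called higher (2.31%) and 26 lower (1.0%). The 5 interferon genes passed 1.5-fold downward, where 20.4% of all genes did, and 0 passed it upward. The 8 measured ones stood at a median of -0.86 in the gate and -1.02 in the other kept cells. Ifi27l2a was 5.44-fold lower (3.37 to 9.27) and Ifi203 3.29-fold lower (2.24 to 4.97). H2-T23, a non-classical MHC class I gene, stood at 130.02, 170.7 and 44.9 CPM in the gate, and Bst2, the virus-tethering protein gene, at 118.8, 160.2 and 55.3. Of the 13 measured antigen presentation genes 6 were at least 1.5-fold lower, where 20.4% of all genes were, and their median of -0.36 became -0.14 when scaled by the median of all genes.
The 4 alpha granule genes at least 1.5-fold higher were Pf4, Vwf, Timp3 and Mmrn1, and Tgfb1 was lower, where 5.32% of all genes were that much higher. The median log2 ratio of all 7 was 0.80, and Pf4 was used by the rule. The median was 0.06 in gate cells with at most 1 erythroid UMI, where only 5 of the 7 genes were measured.
Hist1h2ap, Polr2l and Usp50 were also among the largest higher genes, but their log2 ratios in the other kept cells were 3.13, 1.15 and 1.17, against 2.71, 1.40 and 1.36 in the gate, and histone genes have near-identical copies.

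**Figure D4:**
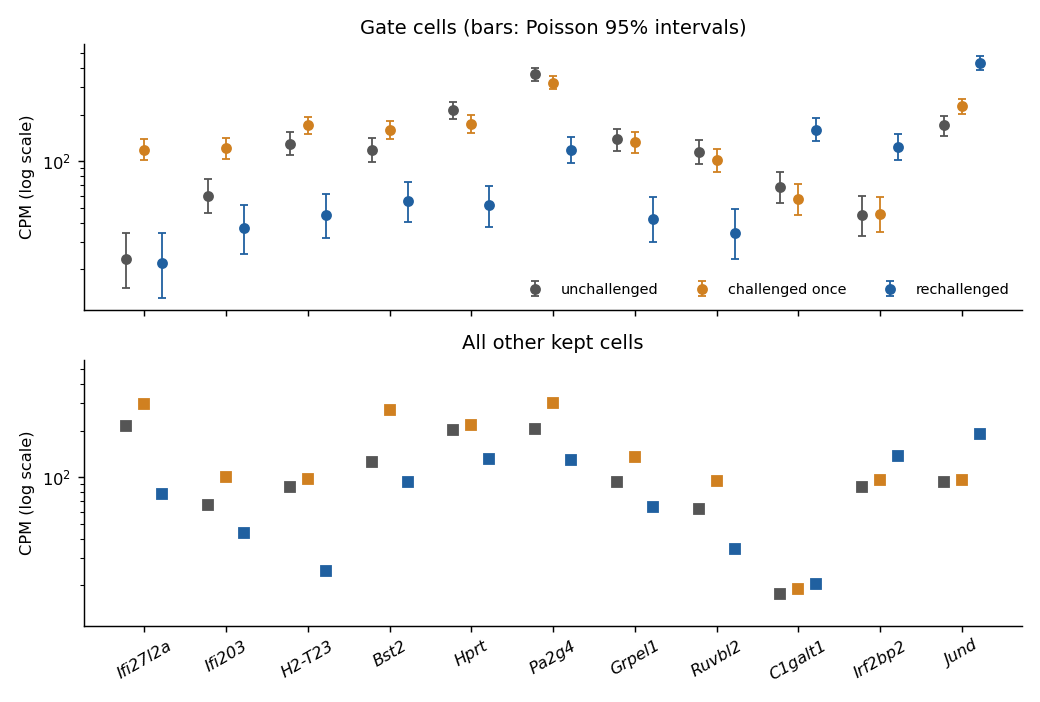
Levels in CPM on a log axis of 11 genes in gate cells (upper panel, with exact Poisson 95% intervals) and in all other kept cells (lower panel, no interval drawn), 1 point a library. Ifi27l2a and Ifi203 are highest in the library challenged once in both panels, while Hprt is at 51.8 CPM in rechallenged gate cells and at 132 CPM in the other rechallenged cells.

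After 1 challenge, protein folding and ribosome genes had medians on opposite sides of 0 in the gate and in the rest of the library. The 17 measured genes of folding in the endoplasmic reticulum had a median log2 ratio over the unchallenged library of -0.29 in the gate and 0.90 in the other kept cells. The 15 ribosome biogenesis genes had -0.31 and 0.56, and the 11 cytosolic chaperones -0.20 and 0.63. In the gate 1, 0 and 0 genes of these lists were at least 1.5-fold lower, where 2.03% of all genes were, and 0 were that much higher. In the other kept cells 13, 7 and 8 of them were that much higher. The share of all genes that much higher there was not counted, so these counts cannot be set against it. Hspa5, the main chaperone of the endoplasmic reticulum, stood at 392.9, 319.7 and 309.8 CPM in the gate and at 252, 652 and 458 CPM elsewhere. The kinds of cells that make up the rest differ between libraries, and within early erythroid, stem-like and basophil or mast cells the medians of the folding genes were 0.12, 0.44 and 0.39. In early erythroid cells, a sister lineage, ribosome biogenesis genes had a median of -0.05, on the same side of 0 as in the gate. The cytosolic chaperones had 0.0021 in those cells. In stem-like cells the medians of these lists were 0.38 and 0.38. The median of all genes was -0.06 in the gate and 0.23 for the same genes in the other kept cells. The difference was not tested, since there was 1 library a group.

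**Figure D5:**
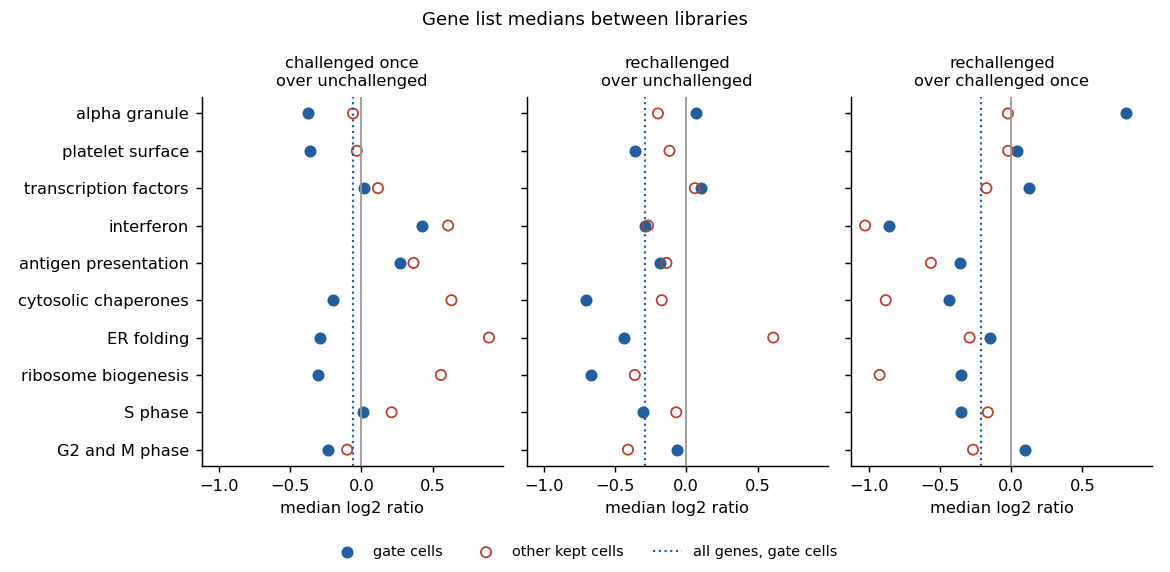
Median log2 ratio of the measured members of 10 gene lists between each pair of libraries, in gate cells (filled) and in all other kept cells (open). The dotted line is the median of all measured genes in gate cells. Genes of endoplasmic reticulum folding stand at -0.29 and 0.90 in the left panel, and interferon genes at -0.86 and -1.02 in the right panel.

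Cell cycle transcripts were common in the gate. After thinning each cell to 2000 UMIs, which left out 2 rechallenged cells, 85.5% of unchallenged gate cells (74.2 to 93.1) held at least 2 UMIs of the S phase list, 86.7% after 1 challenge (77.9 to 92.9) and 85.3% after rechallenge (75.3 to 92.4). Unthinned, the shares were 100%, 98.9% and 100%. Stem-like cells had 64.8%, 80.3% and 66.3% and early erythroid cells 91.1%, 87.5% and 86.2%. Shares for the G2 and M phase list were 56.5%, 62.2% and 70.7% (98.4%, 92.2% and 94.8% unthinned), with overlapping intervals, and immature neutrophils had 69.8%, 77.4% and 74.2%, so no cycling is read from them. Tyms, thymidylate synthase, stood at 82.3, 111.6 and 33.4 CPM, while the proliferation gene Mki67 stood at 157.1, 123.5 and 188.9. At the same thinning, interferon list shares were 91.9% (82.2 to 97.3), 96.7% (90.6 to 99.3) and 72% (60.4 to 81.8), and 100%, 100% and 97.4% unthinned.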

How the data were processed

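Single cell libraries made with the 10x Genomics 3 prime kit were used as deposited: whole UMI counts per gene and cell barcode, per the file headers and values. Per the submitters' processing notes they were made with Cell Ranger 3.0.0 on mm10. The cell filter asked for 500 UMIs, 300 genes and a mitochondrial share of 10% or less, and left 9223, 8650 and 8542 cells, and all columns matched a sample. The members and all 26 gene lists (478 entries, of which Mx2 was not in the tables) were chosen with earlier results of these data known. Comparison gates used other limits. Early erythroid cells held at least 5 erythroid UMIs, Pf4 at 0 and globin UMIs below 50000 CPM. Stem-like cells held at least 2 UMIs of Hlf, Mecom and Procr, at most 2 of Pf4 and at most 4 erythroid UMIs. Basophil or mast cells held at least 5 UMIs of Mcpt8, Prss34, Cpa3 and Ms4a2 and at most 2 of Pf4. All of these kept Camp and Ngp below 20000 CPM, and immature neutrophils held them at 20000 CPM or more.

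UMIs were summed over cells and scaled to CPM, and ratios used log2(CPM + 10) for genes that reached 100 UMIs in a pair of libraries. With 1 library a group no test was made. Intervals are exact Poisson or Clopper-Pearson at 95% and cover counting error only. Named genes were, for each pair, the 8 with the largest higher and lower ratios past 2-fold with a UMI in at least 10% of gate cells of the higher library, up to 4 genes per list, a fixed set, and the 5 most like Pf4, Itga2b and Vwf by correlation of log2(CPM + 100) per cell. Ribosomal protein, mitochondrial, predicted and sex-linked genes were left out of the largest ratios. Gp5, F2r, Clec1b, Apoe, Tubb1, P2ry12, Gp1ba, Csf1r and Hspa5 were added after their values were seen. Cd3e, Cdh5, H2-K1, B2m and Rps12-ps3 were also named outside these rules. A few genes the rule names are not reported here. The ratio step was tried on simulated Poisson sums that held no spread between cells. Of measured genes given a 2-fold change, 35 of 87 were called for challenged once over unchallenged. For rechallenged over unchallenged 28 of 93 were called, and for rechallenged over challenged once 27 of 86. Many 2-fold changes are thus missed by the call. Scrublet (scanpy 1.11.5, expected rate 6%) called 0, 2 and 4 gate cells, which were kept and left out only as an alternative. Tools were numpy 2.4.6, scipy 1.17.1, pandas 2.3.3 and matplotlib 3.10.9.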

Additional observations from a re-analysis of the deposited data

Results flagged for a closer look

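Median log2 ratios of 5 gene lists lay on opposite sides of 0 in gate cells and in the other kept cells of the same libraries, with both at least 0.2 in size. These differences were not tested, and the rest of each library is a mixture whose makeup differs between libraries. Challenged once over unchallenged, the cytosolic chaperones stood at -0.20 in the gate and 0.63 elsewhere, endoplasmic reticulum folding genes at -0.29 and 0.90, and ribosome biogenesis genes at -0.31 and 0.56. Rechallenged over unchallenged, the folding genes stood at -0.44 and 0.61. Rechallenged over challenged once, erythroid genes stood at 0.27 in the gate, where the rule limits 3 of them, and at -0.94 elsewhere.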

How the results depend on the processing

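No paired analysis was possible because each group has 1 library, and for the same reason no replicate could be left out. Across all settings 1379 of the 1486 values computed again stayed within 1.5 times of the reported value or, for shares, within its interval. Of those that stayed, 769 were log2 ratios of single genes, and some settings cannot change such a ratio. Another 540 were list medians, which counted as stayed when they moved by less than 1.5-fold. Most reported medians were smaller than 1.5-fold, so a median could change sign and still count as stayed. Among shares 18 stayed and 18 moved. Among counts of called genes 26 stayed and 7 moved for higher genes, and 26 and 7 for lower genes. With at most 1 UMI of Klf1, Car1 and Mfsd2b the gate shares were 0.325%, 0.613% and 0.574%. The alpha granule median of rechallenged over challenged once was then 0.063 over the 5 genes measured there, against 0.80 in the whole gate. The immediate early median of challenged once over unchallenged was 0.61 over the 3 genes measured there, against -0.12 in the whole gate. Genes called higher after 1 challenge numbered 4 without Scrublet calls and 3 without cells with neutrophil transcripts. Rechallenged over unchallenged, 41 genes were higher and 172 lower at 50 UMIs over the pair, 64 and 24 scaled by the median of ratios, 174 lower with 1 CPM added and 14 higher in cells of high Pf4. Rechallenged over challenged once, these were 45 and 117, 60 and 26, and 127 lower, with 116 lower when cells were weighted equally, and the stem cell list median was -0.40 at 50 UMIs. The neutrophil granule medians were -0.91 and -0.55 over unchallenged without a limit on Camp and Ngp, and -1.86 after rechallenge without cells with neutrophil transcripts. Log2 ratios of neutrophil genes reversed: without those cells Ctsg was -0.29 and -0.20, Elane -0.45 and -0.96 and Mpo -0.34 and -0.16 over unchallenged (challenged once, then rechallenged). Without Scrublet calls Mpo was -0.013 after 1 challenge, and Ctsg -0.14 and Elane -0.63 after rechallenge. Elane was -0.43 after 1 challenge without the limit on Camp and Ngp, and S100a8 was -0.40 for rechallenged over challenged once with cells weighted equally. The cause of these shifts was not tested. Thinned to 4000 UMIs, shares in unchallenged, challenged once and rechallenged gate cells were 96.8%, 97.8% and 98.7% for S phase, 74.2%, 79.8% and 84% for G2 and M phase and 100%, 100% and 97.3% for interferon. At 3 UMIs, S phase was 72.6% unchallenged and 72% rechallenged, G2 and M phase 58.7% rechallenged and interferon 72.6%, 90% and 50.7%. The gate holds few cells, a single cell can supply much of a gene's UMIs, and the rechallenged cells were the shallowest, so low genes such as Gp1bb, Ppbp and Clec1b cannot be ordered firmly between libraries.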
